A study of Homo sapiens with 8 samples.

Results

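The genes described here are 31 members of the p53 pathway, 3 regulators of p53 and 28 of its targets, measured by RNA-seq in the H9 hESC line. They were chosen by name from what is known of the pathway and matched to the Ensembl identifiers of the count files, so that 31 of 57773 genes were taken, and 31 of 31 were among the 23474 genes with enough counts to be tested. H9 is a human embryonic stem cell line in common use, and each of 4 conditions had 2 libraries. The WT cells carried an HA tag on CHD7, a chromatin remodeling enzyme, and were untreated. The CHD7 KO cells were CHD7 -/-, and the study's methods describe the knockout as a stop codon placed in an early exon by CRISPR and grown from picked colonies, so that a library may stand for 1 clone. The HERVH KD cells had the WT CHD7-HA genotype and were collected 24 h after LNA-GapmeRs, modified antisense oligonucleotides that direct the cleavage of RNA, were delivered against HERVH, an endogenous retrovirus transcribed in hESCs. No library with a control GapmeR is among the samples, so the RNA lost and the delivery itself cannot be told apart. The HERVH KO cells lacked 1 HERVH element on chromosome 2, and their labels do not say whether CHD7 was tagged. The study describes this deletion, too, as made by CRISPR, in picked clones screened to be homozygous. A library of HERVH KO may thus also stand for 1 clone. The 3 comparisons with WT use the same 2 WT libraries. The labels do not say that replicates came from separate cultures or clones, so the tests measure the spread between these libraries, which may be technical.

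Between 14802049 and 23156445 reads per library were counted on genes, so that 3 counts corresponded to 0.128 to 0.218 CPM (counts scaled to the library size), a limit that covers counting error only. CHD7 RNA, the target of the knockout, had levels of 651 and 649.5 CPM in WT against 197.3 and 197.2 CPM in CHD7 KO (log2 fold change -1.72, SE 0.14, FDR = 2.25e-05). The summed level of 8 pluripotency markers, among them POU5F1, SOX2 and NANOG, was 4746 to 5535 CPM across the 8 libraries. The summed level of 12 markers of differentiated cells was 78.1 to 92.3 CPM in WT, 128.1 to 128.4 CPM in CHD7 KO, 112 to 295 CPM in HERVH KD and 65.3 to 71.7 CPM in HERVH KO. Of these 12 markers, 1 had no count in either WT library, 2 in CHD7 KO, 2 in HERVH KD and 3 in HERVH KO, and 5 had enough counts to be tested. The part of such cells in the results below was not tested.

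The p53 protein is a transcription factor that is held at a low level in unstressed cells and rises after DNA damage and other stress. MDM2 is the ubiquitin ligase that sends p53 to degradation and is itself a p53 target, whereas MDM4 (also MDMX) is its relative that binds the activation domain of p53 and blocks it. The targets arrest the cell cycle, promote cell death, repair DNA or adjust metabolism, and in hESCs p53 is known to limit the survival of damaged cells and to favour differentiation.

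The DNA element that p53 binds is a pair of adjacent elements of 10 bases with a 4-base core each. Sites matching the p53 consensus were searched on GRCh37, the build the counts use, from 3000 bp before to 5000 bp after the 5′ end of each gene, with both cores intact (CNNG with A or T at each N), up to 2 mismatches at the other 12 consensus positions and no spacer. The consensus is its own reverse complement, so 1 search covers both strands. Of the 26 members that have a promoter in the RefSeq table used, 10 held such a site (38.5%), against 459 of 11921 tested protein-coding genes with such a promoter (3.85%). Within the shorter RefSeq promoters on GRCh38.p14, 250 bases before to 50 after the start, 1 of 26 members, AEN, held a site (3.85%), against 41 of 27305 promoters (0.15%). The sites of 5 targets that recur below are shown so that the element can be seen beside the RNA levels. They are printed in the 5′ to 3′ direction of the strand of each gene, with the cores in capitals. PLK2 and ZMAT3 lie on the minus strand, so their sites are the reverse complement of the plus strand at the positions given. The CDKN1A site spans chr6:36644226-36644245, at the annotated 5′ end of the gene. The PLK2 site lies upstream of the gene at chr5:57758101-57758120, the ZMAT3 site in an intron at chr3:178787976-178787995, the BTG2 site upstream at chr1:203272770-203272789, and the CCNG1 site shown in an intron at chr5:162864932-162864951. A second CCNG1 site, with 2 mismatches, lies in an intron at chr5:162866952-162866971 and is not shown. A match in sequence does not show that p53 binds there in these cells.
CDKN1A: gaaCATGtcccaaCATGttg
PLK2: aaaCATGcctggaCTTGccc
ZMAT3: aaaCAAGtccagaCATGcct
BTG2: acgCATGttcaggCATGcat
CCNG1: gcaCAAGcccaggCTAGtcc
The PLK2 and ZMAT3 sites matched the consensus with 0 mismatches, the CCNG1 site shown with 1, and the CDKN1A and BTG2 sites with 2.

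Per kilobase of exon, the WT level of the members ranged from 0.695 CPM for SPATA18, a protein of mitochondrial quality control, and 0.716 CPM for the death receptor FAS to 168.9 CPM for CCNG1, cyclin G1. TNFRSF10B, BAX and AEN followed at 35.8, 31.5 and 29.7 CPM per kilobase. MDM4 lay at 20.8 and MDM2 at 13.5 CPM per kilobase in WT. These are levels and not differences between conditions. In bulk RNA, fewer cells with a transcript and less of it per cell cannot be told apart.

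MDM4 was the member that rose in CHD7 KO. Its level was 229 and 229.3 CPM in WT, 354 and 424 CPM in CHD7 KO, 224 and 192 CPM in HERVH KD, and 225 and 224 CPM in HERVH KO. Both CHD7 KO libraries lay above every other library. The log2 fold change against WT was 0.76 (95% interval 0.45 to 1.08, SE 0.15, FDR = 0.0178), a 1.7-fold level. In HERVH KD the log2 fold change was -0.14 (SE 0.15, FDR = 0.648), and in HERVH KO it was -0.03 (SE 0.15, FDR = 1). The rise in CHD7 KO rested on few libraries. Its log2 fold change was 0.65 to 0.89 when any 1 of the 8 libraries was left out. The call of MDM4 was lost in most of those fits.

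MDM2 was 121 and 103 CPM in WT and 123 and 119.7 CPM in CHD7 KO, and these values overlapped. Its log2 fold change in CHD7 KO was 0.11 (95% interval -0.29 to 0.52, FDR = 0.916), so that MDM4 moved there without a detected change of MDM2 RNA. In HERVH KO, MDM2 was 117 and 108.5 CPM, again within the range of WT. In HERVH KD, MDM2 was 220.4 and 143 CPM, both above WT, with a log2 fold change of 0.70 (SE 0.19) and an FDR of 0.0714. PPM1D, the phosphatase that switches p53 signalling off, was 30.3 and 30.4 CPM in WT, 30.4 and 20.7 CPM in CHD7 KO, 40.1 and 40.6 CPM in HERVH KD, and 31.9 and 26.3 CPM in HERVH KO, and passed the test in no comparison with WT.

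MDM4 lies on the long arm of chromosome 1, as do the targets BTG2, a growth-arrest gene, and PHLDA3, a repressor of AKT signalling. In CHD7 KO, the 1043 tested genes of this arm had a median log2 fold change of 0.53. The median was -0.04 for the short arm and -0.03 for the other chromosomes. Of the 1043 genes, 93 rose past an FDR of 0.05 (8.92%), against 0.456% on the short arm and 0.857% on the other chromosomes. In HERVH KD and HERVH KO the median of the long arm was 0.02 and -0.02. The change of MDM4 was close to that of its neighbours. Over the 136 other genes tested within 5 Mb of MDM4, the median log2 fold change was 0.72, and 58.1% of them lay below MDM4, which exceeded the median by 0.04. Against the whole arm it stood 0.24 above the median. DNA copy number was not measured in these samples, and its part in the rise was not tested.

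**Figure D1:**
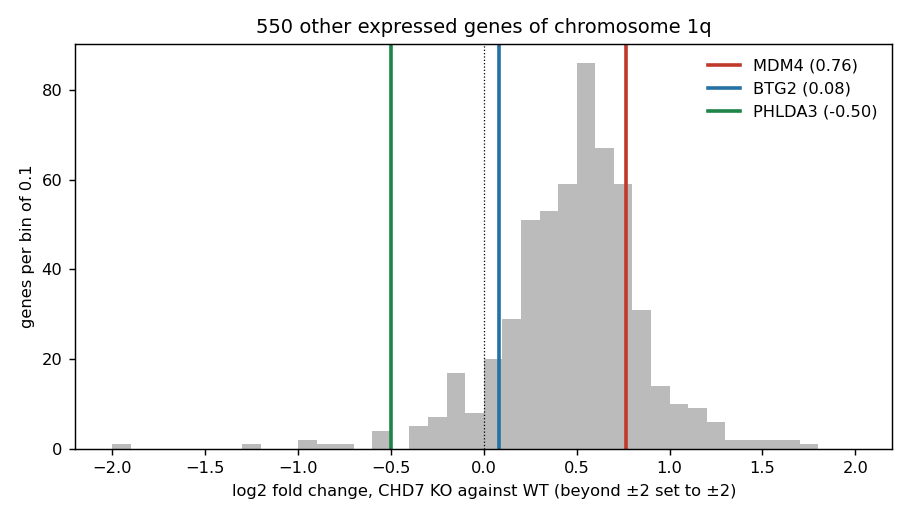
Log2 fold change in CHD7 KO against WT (x axis) for 550 other genes of chromosome 1q above a mean log2 CPM of 2, as a histogram with bins of 0.1, with vertical lines at 3 members. Most of these genes lie above 0 (91.5%), MDM4 lies in the body of the distribution at 0.76, BTG2 at 0.08 lies in its lower part, and PHLDA3 at -0.50 lies in its lower tail.

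PHLDA3 stood below the rise of its arm, and the place of BTG2 depended on 1 WT library. BTG2 was 23 and 11.9 CPM in WT and 17.8 and 19.1 CPM in CHD7 KO, between the WT values. Its log2 fold change was 0.08 (SE 0.28, FDR = 0.967), which was 0.64 below the median of the genes within 5 Mb, and 9.56% of those genes lay below it. Its 95% interval, -0.52 to 0.68, held the median of the arm. Without WT replicate 1 the log2 fold change of BTG2 was 0.67, or 0.10 above the median of the arm, and without WT replicate 2 it was -0.32, a distance of -0.87 from it. PHLDA3 was 49.2 and 45.1 CPM in WT and 34.9 and 31.7 CPM in CHD7 KO. Both knockout values lay below both WT values, with a log2 fold change of -0.50 (SE 0.26, FDR = 0.557). PHLDA3 stood 1.21 below the median of its 125 neighbours, of which 1.6% lay lower. In HERVH KO, where the arm did not shift, the log2 fold changes were -0.79 for BTG2 and -0.61 for PHLDA3 (FDR = 1 for both), and BTG2 lay 0.77 and PHLDA3 0.59 below the median of the arm.

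In CHD7 KO the p53 targets were lower than in WT on the whole, without a single target passing the test at an FDR of 0.05 in edgeR. Of the 31 members, 27 had a lower fitted level and 4 a higher one, with a median log2 fold change of -0.37 against -0.01 for all genes tested. Both CHD7 KO values lay below both WT values for 18 members (58.1%), where 22.4% of all genes tested did so, and above them for 1 member, MDM4 (3.23%), where 21.5% of all genes did so. At an FDR below 0.05, 1 member rose (3.23%), against 1.19% of all genes, and 0 fell, against 0.613% of all genes. At an FDR below 0.01 with at least a 2-fold change, the study's rule for a DEG, 0 members were called, against 0.571% of all genes. At an unadjusted p below 0.05, 13 members passed (41.9%), against 10.9% of all genes. DESeq2 called 5 members at an FDR below 0.05: MDM4, which rose, and CDKN1A, FDXR, PLK2 and ZMAT3, which were lower. DESeq2 also called more of all genes, 728 against 424 by edgeR.

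The number of members called in CHD7 KO depended on the libraries in the fit. It was 9 without HERVH KD replicate 1 and 10 without HERVH KD replicate 2, in both cases MDM4 and a set of lower targets that held CDKN1A, FDXR, PLK2, ZMAT3, DDB2, EDA2R, AEN and PHLDA3. It was 2 without WT replicate 2, and 0 without WT replicate 1 or without any 1 library of CHD7 KO or HERVH KO. In these 5 edgeR fits with 0 calls, 3 members had an unadjusted p below 0.05 without WT replicate 1 and 8 to 10 in the others, and DESeq2 was not run. All libraries share the estimate of the spread. The number of all genes called also rose without either HERVH KD library and fell in the other fits with 1 library left out.

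**Figure D2:**
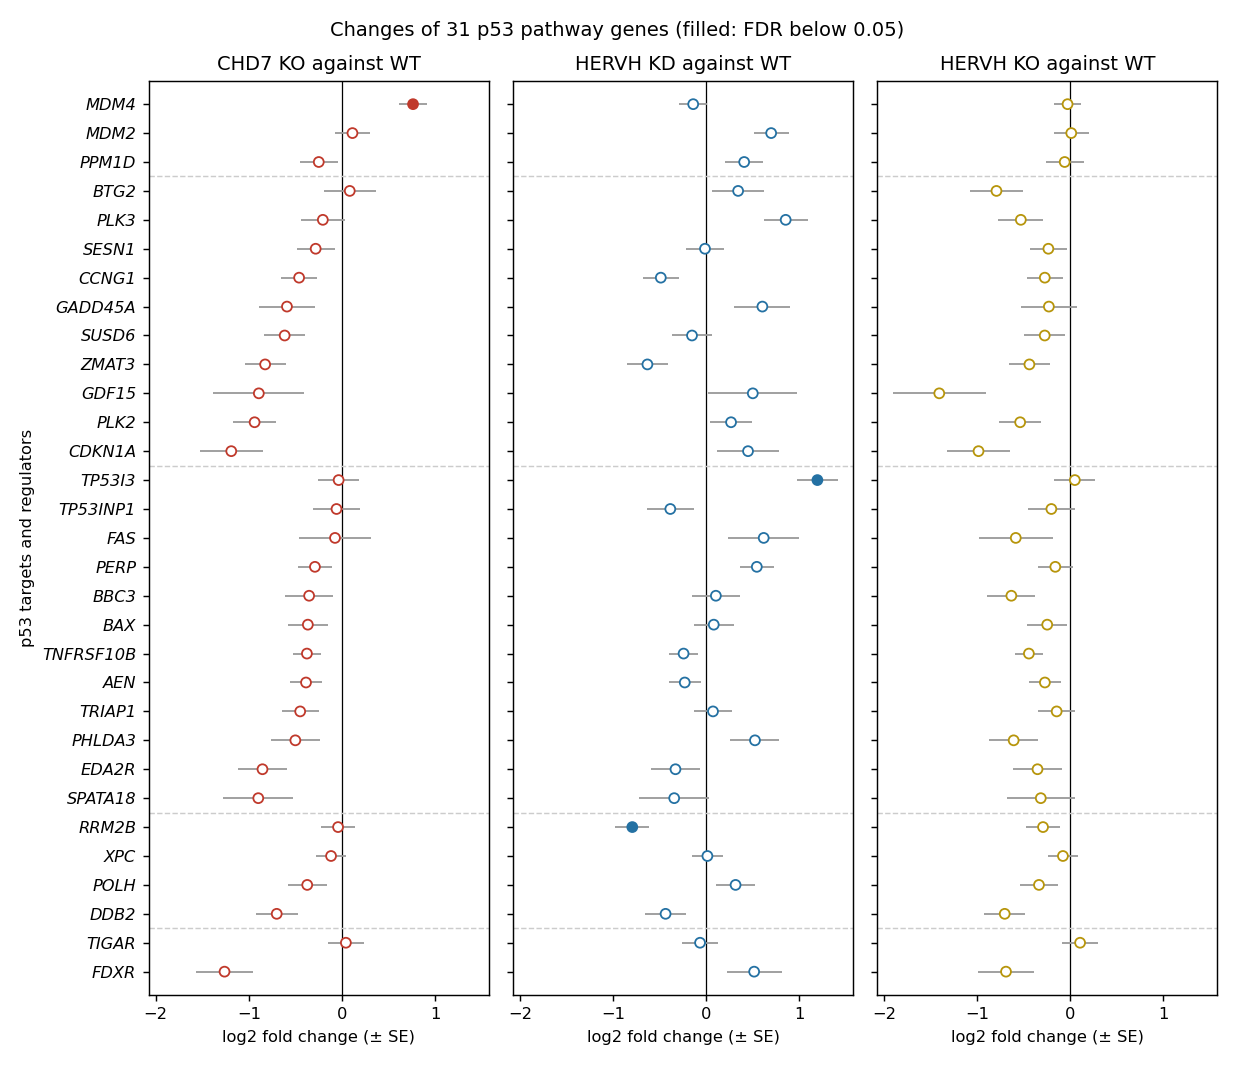
Log2 fold change against WT with its SE (x axis) for each of the 31 members (y axis), grouped by role from regulators through arrest, death and repair to metabolism, in CHD7 KO, HERVH KD and HERVH KO, where filled points have an FDR below 0.05. In CHD7 KO 27 and in HERVH KO 28 of the 31 points lie left of 0, whereas in HERVH KD 18 lie right of it.

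Among the 10 targets that arrest the cell cycle or slow growth, 9 had a lower fitted level in CHD7 KO. For 6 both values lay below WT (60%, against 22.4% of all genes tested). CDKN1A, which encodes the CDK inhibitor p21, was 47.6 and 21.1 CPM in WT and 15.2 and 15 CPM in CHD7 KO. The knockout values were nearly equal and below both WT values, which differed from each other by more than 2-fold. The log2 fold change was -1.19 (95% interval -1.92 to -0.46, SE 0.34, FDR = 0.114). PLK2, a stress-induced Polo-like kinase, was 36.9 and 22.2 CPM in WT and 14.8 and 16 CPM in CHD7 KO (log2 fold change -0.94, SE 0.23, FDR = 0.0573). ZMAT3, an RNA-binding zinc finger protein, was 60 and 43.9 CPM in WT and 24.8 and 33.9 CPM in CHD7 KO (log2 fold change -0.82, SE 0.22, FDR = 0.0869). For PLK2 and ZMAT3, too, the groups did not overlap.

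CCNG1, whose cyclin acts in a feedback on p53, was 628 and 418 CPM in WT and 364 and 396 CPM in CHD7 KO. Its log2 fold change was -0.46 (SE 0.19, FDR = 0.376). GDF15, a secreted stress hormone, was 12.8 and 5.19 CPM in WT and 4.11 and 5.59 CPM in CHD7 KO. Its WT values spanned those of the knockout in part, and its log2 fold change was -0.89 (SE 0.49, FDR = 0.583). PLK3, another Polo-like kinase, was 9.6 and 7.76 CPM in WT and 7.12 and 7.96 CPM in CHD7 KO, which overlapped. GADD45A and SUSD6 had log2 fold changes of -0.59 and -0.61 and did not overlap with WT, whereas SESN1, at -0.28, did.

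All 12 targets with roles in cell death and its control had a lower fitted level in CHD7 KO, with a median of -0.37. For 9 of them both values lay below WT (75%, against 22.4% of all genes tested). Their log2 fold changes ranged from -0.90 for SPATA18 and -0.85 for the receptor EDA2R to -0.04 for TP53I3, an oxidoreductase. BAX and BBC3, which encode the cell death proteins BAX and PUMA, had log2 fold changes of -0.37 and -0.35. None of the 12 passed the test at an FDR of 0.05, and 5 had an unadjusted p below 0.05 (41.7%, against 10.9% of all genes).

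All 4 targets in DNA repair and nucleotide supply were lower in their fitted level as well. DDB2, which recognizes UV damage, was 69.2 and 46.6 CPM in WT and 30.6 and 40.7 CPM in CHD7 KO (log2 fold change -0.70, SE 0.22, FDR = 0.168). RRM2B, the p53-induced subunit of ribonucleotide reductase, was 141 and 96.8 CPM in WT and 112 and 119 CPM in CHD7 KO, between the WT values. Of the 2 metabolic targets, FDXR and TIGAR differed. FDXR, a mitochondrial reductase of iron-sulfur cluster synthesis, was 29 and 24.3 CPM in WT and 11.1 and 11.1 CPM in CHD7 KO. Its log2 fold change of -1.26 was the lowest of all 31 members (95% interval -1.92 to -0.60, SE 0.31, FDR = 0.0573). TIGAR, a regulator of glycolysis, was 17.2 and 15.8 CPM in WT and 17.9 and 16 CPM in CHD7 KO, which overlapped.

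**Figure D3:**
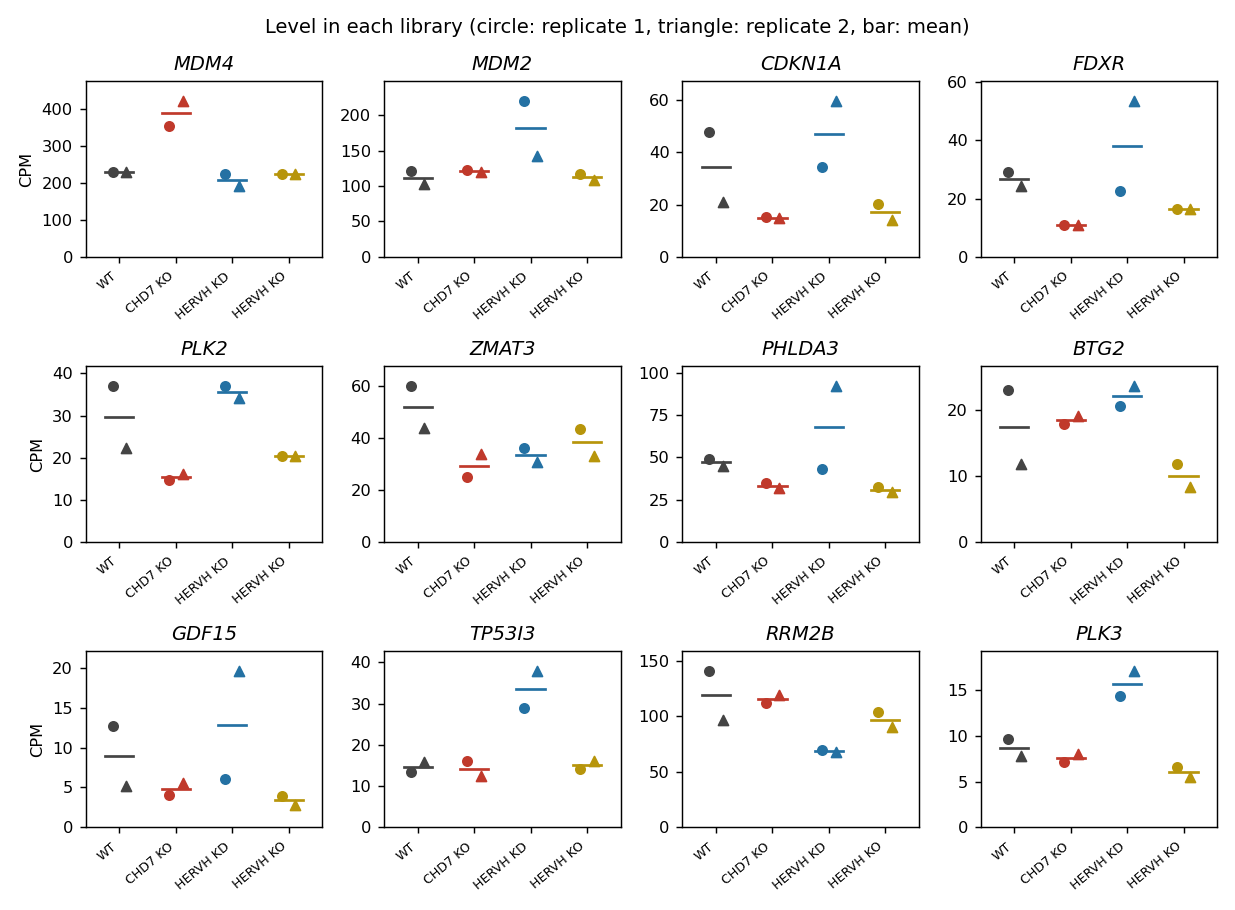
CPM (y axis, from 0) in each of the 8 libraries for 12 members, with circles for replicate 1, triangles for replicate 2 and a bar for the mean of each condition. MDM4 is raised in both CHD7 KO libraries only, CDKN1A, FDXR, PLK2 and ZMAT3 lie below WT in CHD7 KO, and TP53I3 is raised and RRM2B lowered in both HERVH KD libraries.

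The WT libraries themselves differed in these genes. In WT replicate 1, 27 of the 31 members were higher than in WT replicate 2, with a median difference of 0.33 on the log2 scale, whereas 47.7% of all genes tested were higher there and the median over them was -0.02. The widest gap was that of GDF15, at 1.28. When WT replicate 1 was left out, 23 of 31 members remained lower in CHD7 KO, with a median of -0.19, and when WT replicate 2 was left out, 29 were lower, with a median of -0.51. The direction of the median did not depend on which WT library was used, while its size changed by over 2-fold. HERVH KO leaned the same way, with 26 of 31 members higher in replicate 1 and a median difference of 0.15. In CHD7 KO, 13 members were higher in replicate 1 and 18 in replicate 2, and in HERVH KD 11 and 20.

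The HERVH KO cells also had lower fitted levels of the p53 targets, with MDM4 near the WT level. Of the 31 members, 28 were lower and 3 higher, with a median log2 fold change of -0.29 against -0.02 for all genes tested. Both values lay below both WT values for 18 members (58.1%), MDM4 among them by a small margin, where 20.3% of all genes did so, and above them for 1, TIGAR (3.23%), where 17.7% of all genes did so. No member was called by edgeR at an FDR below 0.05 or by DESeq2, and 10 had an unadjusted p below 0.05 (32.3%), against 2.63% of all genes. This comparison called few genes of any kind: 0% of all genes rose and 0.0724% fell at an FDR below 0.05, and 0.0298% met the rule for a DEG.

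CDKN1A was 20.4 and 14.2 CPM in HERVH KO, below both WT values, with a log2 fold change of -0.99 (95% interval -1.71 to -0.26, SE 0.34, FDR = 1). GDF15 was 3.93 and 2.81 CPM in HERVH KO, below the WT values of 12.8 and 5.19 CPM. Its log2 fold change of -1.41 (SE 0.50, FDR = 1) was the lowest of the members in this comparison. BTG2 was 11.8 and 8.31 CPM (log2 fold change -0.79, SE 0.28), and its higher value lay just under the lower WT value. FDXR was 16.5 and 16.5 CPM in HERVH KO, below WT, with a log2 fold change of -0.69 (SE 0.30). PLK2 was 20.3 CPM in both libraries, PLK3 6.54 and 5.45 CPM and ZMAT3 43.4 and 33.1 CPM, each of them below both WT values. CCNG1, at 467 and 398 CPM, overlapped with WT.

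By role, all 10 arrest genes, 11 of 12 death genes and all 4 repair genes had a lower fitted level in HERVH KO, with medians of -0.49, -0.30 and -0.31. TP53I3 was 14.1 and 16 CPM, RRM2B 104 and 90.3 CPM and TIGAR 17.8 and 17.6 CPM. TIGAR was above both WT values by a small margin, a log2 fold change of 0.11 (SE 0.19, FDR = 1). These values, too, leaned on WT replicate 1: without it, 21 of 31 members were lower, with a median of -0.10 and 0 members at an unadjusted p below 0.05, and without WT replicate 2, 29 were lower, with a median of -0.54.

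Compared directly, CHD7 KO and HERVH KO differed in 1 of the 31 members at an FDR below 0.05 (3.23%), against 2.66% of all genes tested. This member was MDM4, higher in CHD7 KO with a log2 fold change of 0.79 (SE 0.15, FDR = 0.00936). For the targets the intervals were wide. The difference of CDKN1A was -0.20 (95% interval -0.94 to 0.53), that of FDXR was -0.57 (95% interval -1.23 to 0.09), and that of PHLDA3 was 0.11 (95% interval -0.46 to 0.68). BTG2 was higher in CHD7 KO by 0.88 (95% interval 0.26 to 1.49, FDR = 0.158), with no overlap between the groups. The median difference over the 31 members was -0.06.

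MDM4 and the targets can be set side by side in each library, as log2 CPM minus the mean of the WT libraries. In CHD7 KO, MDM4 stood at 0.63 and 0.89 and the median of the 26 targets that lie off chromosome 1q at -0.46 and -0.40. In HERVH KO, MDM4 stood at -0.02 and -0.03 and the targets at -0.23 and -0.37. The median of the targets thus lay below the WT mean in the libraries of both knockouts, and MDM4 lay above it in those of CHD7 KO. In WT, MDM4 was nearly equal in both libraries and the targets stood at 0.20 and -0.20, so that HERVH KO replicate 1 was close to WT replicate 2. In HERVH KD, MDM4 stood at -0.03 and -0.26 and the targets at -0.13 and 0.16. The ratio of MDM4 to MDM2 in CPM was 1.89 and 2.23 in WT, 2.89 and 3.54 in CHD7 KO, 1.02 and 1.34 in HERVH KD, and 1.92 and 2.06 in HERVH KO. It was highest in both CHD7 KO libraries and lowest in both HERVH KD libraries. The 8 libraries fall into 4 conditions, so no correlation over them was computed.

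**Figure D4:**
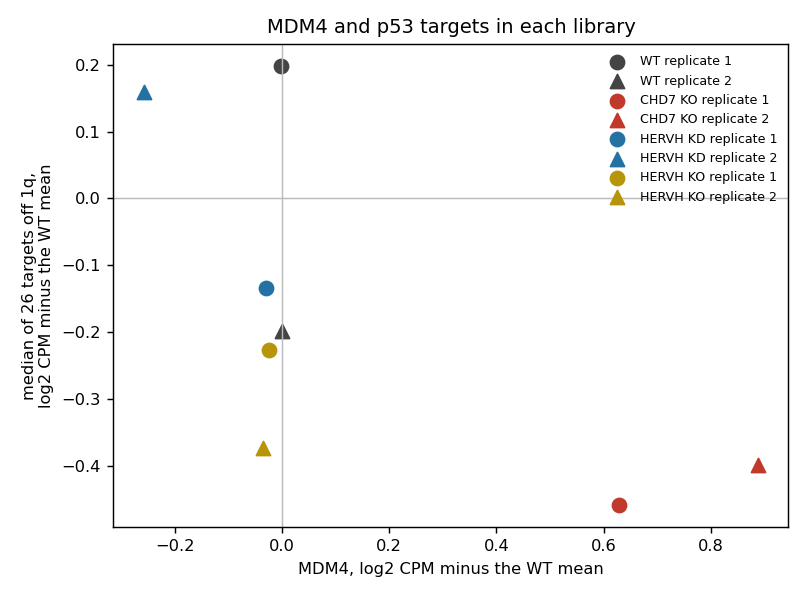
Median of 26 p53 targets off chromosome 1q (y axis) against MDM4 (x axis) in each of the 8 libraries, both as log2 CPM minus the mean of the WT libraries, with circles for replicate 1 and triangles for replicate 2. The CHD7 KO libraries lie low and to the right at 0.63 and 0.89, the HERVH KO libraries lie low at an MDM4 level near 0, and the 2 WT libraries share their MDM4 level while their targets lie 0.20 above and below 0.

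In HERVH KD the members moved in both directions. Of the 31 members, 18 had a higher fitted level and 13 a lower one, with a median log2 fold change of 0.08 against 0.04 for all genes tested. This balance turned when 1 library was left out: without HERVH KD replicate 2, 10 were higher and 21 lower, with a median of -0.13, and without WT replicate 2, 11 were higher and 20 lower, with a median of -0.07. At an FDR below 0.05, 1 member rose (3.23%), against 0.618% of all genes, and 1 fell (3.23%), against 1.53% of all genes. By the rule for a DEG, 0 members were called by edgeR, against 0.217% of all genes. Both values lay above both WT values for 7 members (22.6%), where 22.5% of all genes did so, and below them for 4 members (12.9%), where 22.3% did so. At an unadjusted p below 0.05, 7 members passed (22.6%), against 19% of all genes, and DESeq2 called 4 members at an FDR below 0.05, adding MDM2 and PLK3, both higher. Of all genes DESeq2 called 1259, against 504 by edgeR.

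TP53I3 was the member that rose. It was 13.4 and 15.8 CPM in WT and 28.9 and 37.9 CPM in HERVH KD, with both treated values above those of every other library. The log2 fold change was 1.20 (95% interval 0.72 to 1.67, SE 0.22, FDR = 0.0178), a 2.29-fold level. RRM2B was the member that fell, from 141 and 96.8 CPM in WT to 69.8 and 67.6 CPM in HERVH KD. These were its lowest values in any library, and the log2 fold change was -0.79 (95% interval -1.18 to -0.40, SE 0.18, FDR = 0.0399). The call of TP53I3 was lost without either WT library (FDR = 0.244 and 0.0608), and that of RRM2B without WT replicate 1 (log2 fold change -0.50, FDR = 0.56) and without any 1 library of CHD7 KO or HERVH KO (FDR = 0.0565 to 0.0749). With only the 4 libraries compared, both calls were lost.

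PLK3 was 14.3 and 17.1 CPM in HERVH KD, above all other libraries, with a log2 fold change of 0.85 (SE 0.24, FDR = 0.076). ZMAT3, in contrast, was 36.2 and 30.8 CPM, below both WT values (log2 fold change -0.63, SE 0.22, FDR = 0.149). BTG2 was 20.6 and 23.7 CPM and overlapped with WT, as did PLK2 at 37.1 and 34.1 CPM. CCNG1 was 421 and 325 CPM (log2 fold change -0.49, SE 0.19, FDR = 0.194), and TIGAR was 14.8 and 16.7 CPM.

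For several targets the HERVH KD replicates disagreed. CDKN1A was 34.3 CPM in replicate 1 and 59.8 CPM in replicate 2, FDXR was 22.8 and 53.7 CPM, PHLDA3 was 43.5 and 92.4 CPM, and GDF15 was 6.02 and 19.7 CPM. In each case replicate 1 lay within or below the WT values and replicate 2 above them. This difference between the libraries moved with GC content over the genes above a mean log2 CPM of 2. When these genes were ranked by GC content and cut into 5 bins of 2496, the median of replicate 2 minus replicate 1 on the log2 scale was -0.36 in the bin of lowest GC and 0.66 in that of highest GC. The 8 members in the highest bin were BAX, BBC3, CDKN1A, FDXR, GADD45A, GDF15, PHLDA3 and PLK3, and the 6 in the lowest were CCNG1, MDM2, PERP, RRM2B, TP53INP1 and ZMAT3. With a correction for GC content by loess, the calls in HERVH KD were MDM2, PERP and TP53I3, higher, and RRM2B, lower, and the log2 fold change of MDM2 was 0.80 (FDR = 0.00117). With this correction 2015 of all genes were called in HERVH KD, against 504 without it. With replicate 1 alone the median log2 fold change of the members in HERVH KD was -0.13, and with replicate 2 alone it was 0.20. Relative to the WT mean in log2 CPM, TP53I3 stood at 0.99 and 1.38 in replicates 1 and 2, and RRM2B at -0.74 and -0.79. In fits with 1 library of HERVH KD, that library is assumed to vary like the other groups.

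The contrast between HERVH KD and CHD7 KO was the widest. Of the 31 members, 10 differed at an FDR below 0.05 (32.3%), against 9.44% of all genes tested, and the median log2 difference was 0.52 against 0.04. The 8 that were higher in HERVH KD were CDKN1A, FDXR, GADD45A, PERP, PHLDA3, PLK2, PLK3 and TP53I3, and the 2 that were lower were MDM4 and RRM2B. FDXR differed by 1.78 (SE 0.31, FDR = 0.00368), CDKN1A by 1.64 (SE 0.34, FDR = 0.0104), PLK2 by 1.21 (SE 0.23, FDR = 0.006) and MDM4 by -0.90 (SE 0.15, FDR = 0.00268). PLK2 was 37.1 and 34.1 CPM in the knockdown against 14.8 and 16 CPM in the knockout, with replicates close to each other in both groups. Of the 8 higher members, CDKN1A, FDXR, GADD45A, PHLDA3 and PLK3 belong to the bin of highest GC content. In that bin HERVH KD replicate 2 exceeded replicate 1 by a median of 0.66 on the log2 scale. For each of these members the lower treated value still lay above both CHD7 KO values.

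Between HERVH KD and HERVH KO, 2 members differed at an FDR below 0.05 (6.45%), against 1.33% of all genes tested. PLK3 was higher in HERVH KD by 1.39 (SE 0.24, FDR = 0.0142) and TP53I3 by 1.15 (SE 0.22, FDR = 0.0239). CDKN1A, at 1.44 (SE 0.34, FDR = 0.0555), and PHLDA3, at 1.13 (SE 0.27, FDR = 0.0547), did not pass the test. PLK3, CDKN1A and PHLDA3 all belong to the bin of highest GC content. Both HERVH KD values lay above both HERVH KO values for 18 members (58.1%), where 24.9% of all genes did so.

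Other genes of the pathway were taken from wider lists. Of 55 further p53 targets tested, 36 had a lower fitted level in CHD7 KO and 19 a higher one, with a median of -0.12, and 44 were lower and 11 higher in HERVH KO, with a median of -0.25. In HERVH KD, 28 were higher and 27 lower, with a median of 0.01. At an FDR below 0.05, 1 rose and 1 fell in CHD7 KO (1.82% each, against 1.19% and 0.613% of all genes), and 2 rose in HERVH KD (3.64%, against 0.618%). In HERVH KO none was called by edgeR, and 5 had an unadjusted p below 0.05 (9.09%, against 2.63% of all genes). SFN, which encodes the cell cycle inhibitor 14-3-3 sigma, was 1.06 and 1.17 CPM in WT, 3.28 and 2.9 CPM in CHD7 KO and 4.6 and 5.97 CPM in HERVH KD. SFN rose in both, with log2 fold changes of 1.47 (SE 0.35, FDR = 0.0492) and 2.23 (SE 0.35, FDR = 0.00848). TRIM22, an antiviral ubiquitin ligase, fell in CHD7 KO from 63.6 and 41.7 CPM to 19.1 and 24 CPM (log2 fold change -1.29, SE 0.24, FDR = 0.0149). VWCE rose in HERVH KD from 15.5 and 19.4 CPM to 27.2 and 43.3 CPM (log2 fold change 1.02, SE 0.23, FDR = 0.0399).

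Of 23 further regulators of p53 tested, 1 was called in any comparison with WT. It rose in CHD7 KO (4.35%, against 1.19% of all genes called higher). In HERVH KD and HERVH KO 0 were called, against 2.15% and 0.0724% of all genes. RFWD2 (also COP1), a ubiquitin ligase for p53 that lies on chromosome 1q as MDM4 does, rose in CHD7 KO with a log2 fold change of 0.65 (SE 0.15, FDR = 0.0453). Its level in that annotation, under the symbol COP1, was 73.7 and 66.1 CPM in WT and 113 and 106 CPM in CHD7 KO. Of 18 cell cycle genes that p21 represses through the DREAM complex, 0 were called by edgeR in the 3 comparisons with WT. An unadjusted p below 0.05 was seen for 1, 5 and 0 of them in CHD7 KO, HERVH KD and HERVH KO. These are 5.56%, 27.8% and 0%, against 10.9%, 19% and 2.63% of all genes. The medians of the 18 genes were 0.00, -0.03 and -0.02, so that no shift of these genes was detected beside the lower CDKN1A values of the knockouts.

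Stress responses that share targets with p53 were also counted, and their lists share genes with those above. Of 14 immediate early genes, 9 had a lower fitted level in CHD7 KO, 8 in HERVH KD and 13 in HERVH KO, with medians of -0.29, -0.48 and -0.48. FOSL1 fell in CHD7 KO from 15.7 and 7.76 CPM to 3.19 and 4.25 CPM (log2 fold change -1.66, SE 0.32, FDR = 0.0186). It was the 1 immediate early gene called there (7.14%, against 0.613% of all genes called lower). FOS fell in HERVH KD from 73.6 and 48.6 CPM to 14.2 and 17.3 CPM. FOSB fell there as well, with log2 fold changes of -1.96 and -4.43 for FOS and FOSB (FDR = 0.0164 and 0.00733). These were the 2 immediate early genes called in HERVH KD (14.3%, against 1.53% of all genes called lower). FOSB was 38.7 and 21.7 CPM in WT, 1.04 and 1.82 CPM in HERVH KD, and 14.5 and 2.81 CPM in HERVH KO. A further list held 12 genes of the integrated stress response: ATF4, DDIT3 (CHOP) and targets of these factors. Of these, CHAC1 and PSAT1 fell in HERVH KD, with log2 fold changes of -1.42 (FDR = 0.0225) and -0.62 (FDR = 0.0407). They were the 2 genes of this list called there (16.7%, against 1.53% of all genes called lower). CHAC1 was 54 and 40.3 CPM in WT and 15.1 and 20.3 CPM in HERVH KD, and PSAT1 was 391 and 356 CPM in WT and 231 and 254 CPM in HERVH KD. Of the 12, 5 had a lower fitted level in CHD7 KO and 10 in HERVH KD, with medians of 0.05 and -0.50. In HERVH KO 12 of 12 of these genes had a lower fitted level, with a median of -0.35. There 0 were called by edgeR while 2 had an unadjusted p below 0.05 (16.7%, against 2.63% of all genes). The part of these responses in the levels of the p53 targets was not tested. Of the markers, none of the 8 for pluripotency was called in the comparisons with WT, where 1, 0 and 0 had an unadjusted p below 0.05 in edgeR. The 1 marker in CHD7 KO is 12.5%, against 10.9% of all genes. TUBB3, a neuronal tubulin, rose in HERVH KD from 4.11 and 6.83 CPM to 13.4 and 21.1 CPM (log2 fold change 1.65, SE 0.37, FDR = 0.0366). It was the 1 marker called there of the 5 tested for differentiated cells (20%, against 0.618% of all genes called higher). Of these 5, 3 had a higher fitted level in HERVH KD and 2 a lower one. Exons of TUBB3 overlap those of another annotated gene on the same strand.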

How the data were processed

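RNA-seq counts of 8 libraries of the H9 hESC line in 4 conditions were used, and samples were grouped by their labels. The authors used STAR for mapping to hg19 and HTSeq for counting on Ensembl genes. The deposited values are raw counts per gene, without normalization. Versions and the strand setting of the counting are not given in the sources used here, so reads of overlapping or antisense genes may not be told apart. The 5 summary entries below the genes in each file were left out of library sizes.

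With R 4.3.3 and edgeR 4.0.16, libraries were scaled by TMM, genes were kept by filterByExpr, and conditions were compared by the two-sided quasi-likelihood test in 1 fit of all 8 libraries with 4 residual degrees of freedom. The FDR is Benjamini-Hochberg adjusted over all genes tested, SE is the absolute log2 fold change over the root of F, and intervals use the degrees of freedom of the test. CPM are TMM-scaled, and log2 CPM have a prior count of 2. Groups have 2 libraries, so SD is not given beside the values of both. DESeq2 1.42.0, RLE scaling, no filter, fits of 4 libraries, a replicate block, a GC correction by loess (span 0.3), TMM without chromosomes 1 and 16 and each library left out were alternatives. Gene positions, exon lengths and GC content came from a GRCh37 annotation, and figures from Python 3.11.15 with matplotlib 3.10.9. The procedure was tested on simulated data.

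Named with the value in each library were MDM2, MDM4, CDKN1A, BTG2, PHLDA3, each member called against WT and, per comparison, the 3 members that rose most and the 3 that fell most by fitted change, and of the wider lists each gene called against WT. DDB2 and PPM1D, and the promoters and sites shown, were chosen after their values were seen. The members and lists were chosen with earlier results of these data known, so they got no test as sets. A gene covered by the naming rule is not reported here.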

Additional observations from a re-analysis of the deposited data

How the results depend on the processing

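Calls of single members depended on the fit, while the median shifts kept their direction in CHD7 KO and HERVH KO; the small median in HERVH KD ranged from -0.13 to 0.24 with a library left out. In CHD7 KO, where the fit described in the report called 1 member, the count was 2 with RLE scaling, 5 with DESeq2, 7 without a filter on low counts, 7 with only the 4 libraries compared, 7 with the GC correction and 7 with the GC correction and the replicate block, and 0 to 10 with a library left out. The median in CHD7 KO was -0.33 with the GC correction and -0.33 with the GC correction and the block, and -0.51 to -0.19 with a library left out. In HERVH KD, where 2 were called, the count was 4 with DESeq2, 5 without a filter, 0 with only the 4 libraries, 4 with the GC correction and 4 with the GC correction and the block, and 0 to 10 with a library left out. In HERVH KO, where 0 were called, the count was 2 without a filter (CDKN1A and GDF15), and the median was -0.54 to -0.10 with a library left out. The causes were not tested. The number of all genes called moved as well. In CHD7 KO it was 424 in the fit described, 728 with DESeq2, 854 without a filter, 1285 with only the 4 libraries and 1036 with the GC correction. In HERVH KD it was 504 in the fit described, 1259 with DESeq2, 1499 without a filter, 57 with only the 4 libraries and 2015 with the GC correction. In HERVH KO it was 17 in the fit described and 43 without a filter. The distance of MDM4 from the median of the genes around it was 0.0421 within 5 Mb against 0.24 over the whole arm, and that of BTG2 from the arm was -0.87 to 0.10 with a library left out. Replicate numbers pair the samples only by number: deviations of same-numbered libraries from their group means correlated at -0.23 in CHD7 KO, 0.29 in HERVH KD and 0.43 in HERVH KO with WT over 12704 genes, and with the replicate block the count of members called was 2 in CHD7 KO, 3 in HERVH KD and 0 in HERVH KO. Over the alternatives, with 720 values of single members, 15 lost their call, 54 gained one and none turned its direction while called. Most of the 720 had no call to lose. The 15 losses fell on MDM4 in CHD7 KO and on TP53I3 and RRM2B in HERVH KD. These were the only members called against WT in the fit described in the report. With 2 libraries per group, differences of the size seen for most targets could not be told from the spread between libraries.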
